A study of Mus musculus with 9 samples.

Results

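Collagen chain genes encode the subunits of the collagens, the triple-helical proteins that carry tensile load in connective tissue. The genes described here are all measured mouse genes whose symbol is made of Col, a number, a and a number. There were 42 of them among 30142 genes measured in whole mouse hearts. Gene symbols came from the array's platform annotation, only probe sets with 1 symbol were used, and no collagen gene had more than 1 such probe set. The probe set of Col7a1 is shared with Mir711 and that of Col6a4 with Dvwa, so both were left out. Both of those probe sets lay below the negative controls on every array, with ranges over the 9 arrays of 0.135 and 0.122 on the log2 scale.

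Collagens are grouped by what they build. Fibrillar collagens assemble into the banded fibres of scar and interstitium, and FACIT collagens (fibril-associated collagens with interrupted triple helices) sit on the surface of those fibres. Network collagens form sheets such as the basement membrane around heart muscle cells and capillaries, and the microfibrillar type VI collagens form beaded filaments between the interstitium and basement membranes. After an infarct, fibroblasts deposit type I and type III collagen in the scar, which keeps the wall from rupturing and also stiffens it. The 42 genes comprised 11 fibrillar, 9 FACIT, 9 network and 5 microfibrillar chains, and 8 others (transmembrane chains, the multiplexins Col15a1 and Col18a1, and Col26a1 and Col28a1).

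All hearts came from immunodeficient nude mice labelled as being in chronic heart failure. For the study's mice the labels describe an infarct made by tying off the left anterior descending artery for good, and those whose ejection fraction lay below 50% at 3 weeks were kept. Hearts were taken 6 weeks after treatment. The vesicle group (3 arrays) had received the extracellular vesicles, or membrane particles, that 500000 cardiovascular progenitor cells released over 48 hours. The cell group (3 arrays) had received 500000 of those progenitor cells at 3 sites around the infarct. The control group (2 arrays) had received the culture medium alpha-MEM. The sham group (1 array) had its heart wall pierced by a needle 3 times with nothing injected, and its label also reads chronic heart failure, although the labels do not say outright whether this heart had been infarcted. Vesicle array 1, cell array 1, control array 1 and the sham array belong to an experiment numbered 9, and vesicle arrays 2 and 3, cell arrays 2 and 3 and control array 2 to an experiment numbered 1. What the experiment numbers stand for is not stated in the labels. The labels do not say whether every array holds a different animal's heart, so p-values measure only the spread between these arrays.

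Levels are the deposited log2 expression values, 1 per gene and array, so that a difference of 1 is a doubling. The negative control probe sets gave a background limit on each array, their 95th percentile, which lay between 7.18 and 7.28, and 6378 to 6790 genes were above it. By that measure 9 collagen genes were above the negative controls on all 9 arrays (Col1a1, Col1a2, Col3a1, Col4a1, Col4a2, Col6a1, Col6a2, Col14a1 and Col15a1), 4 were above on some arrays, and 29 on none. The cardiomyocyte markers were bright on every array, with a list mean between 11.27 and 11.38 over 7 genes, and Myh6, the adult myosin heavy chain, lay between 12.84 and 12.96. Vesicle array 3 stood apart in 7 lung markers, with a list mean of 7.11 there against 4.93 to 5.34 on the other arrays. It was also highest in 7 mesothelial or epicardial markers, with a list mean of 6.22 against 5.83 to 6.04. Some vesicle results, though not all, are therefore also given without vesicle array 3. In whole-heart RNA, fewer cells of a type and less RNA per cell cannot be told apart.

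Many values in the deposited table are identical between arrays, and 24 of the 42 collagen genes repeated 1 value exactly on at least 3 arrays, as did 61.1% of all genes. These are called tied genes below. The other 18 are called varying genes. They were Col1a1, Col1a2, Col3a1, Col5a1, Col5a2 and Col5a3 among the fibrillar chains, Col12a1 and Col14a1 among the FACIT chains, and Col4a1, Col4a2, Col4a4, Col8a1 and Col10a1 among the network chains, with Col6a1, Col6a2, Col6a3 and Col6a5 for type VI and Col15a1 for the multiplexins. The split was made from the measured values, so counts over the varying genes are a description.

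The promoters of 3 varying genes are shown because all 3 were lowest on cell array 1 (below) while the printed stretches hold different motifs. Each is the 120 bases before the annotated start, 5′ to 3′ on the gene's strand, credited to RefSeq on build GRCm38.p6. Capitals mark a CCAAT box, a TATAAA box or a GC box (GGGCGG, or CCGCCC where it lies on the opposite strand). Col1a2 lies at chr6:4505498-4505617 on the plus strand, Col3a1 at chr1:45311418-45311537 on the plus strand and Col8a1 at chr16:57754738-57754857 on the minus strand.
Col1a2: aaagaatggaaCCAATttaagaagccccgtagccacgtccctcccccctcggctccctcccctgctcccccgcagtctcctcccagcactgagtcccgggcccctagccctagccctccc
Col3a1: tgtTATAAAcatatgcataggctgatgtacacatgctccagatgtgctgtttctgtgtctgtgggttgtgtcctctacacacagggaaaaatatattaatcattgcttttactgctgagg
Col8a1: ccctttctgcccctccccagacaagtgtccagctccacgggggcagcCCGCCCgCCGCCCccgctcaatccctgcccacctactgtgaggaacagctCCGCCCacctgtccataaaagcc

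The stretch before Col1a2 holds 1 CCAAT box, that before Col3a1 holds 1 TATAAA box, and that before Col8a1 holds 3 GC boxes on the opposite strand. Over the longer window of 250 bases before the start, Col1a2 also had 2 GC boxes, and Col8a1 had 4 in all. RefSeq windows were at hand for 33 of the 42 genes, 36 windows in all, and were searched over the 250 bases before the start on both strands. No matches overlap in the 3 printed stretches. The GC box GGGCGG was in 20 of the 36 collagen windows (55.6%) and in 32.7% of all 32851 windows of that length. The CCAAT box was in 30.6% of collagen windows and 33.8% of all windows, and the TATAAA box in 13.9% and 12.4%. Among collagen windows, GGGCGG was in 8 of 15 windows of varying genes and 12 of 21 windows of tied genes. A motif match is a description of the letters and not a binding site.

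The fibrillar chains of scar tissue had their lowest levels on 2 arrays of experiment 9, one of hearts given cells and the other of hearts given medium. Col1a1, which encodes the chain present in 2 copies in type I collagen, read 9.27, 9.37 and 9.40 on vesicle arrays 1 to 3, 8.86, 9.02 and 9.43 on cell arrays 1 to 3, 8.86 and 9.34 on control arrays 1 and 2, and 9.32 on the sham array. Col1a2, the partner chain of type I collagen, read 8.96, 9.10 and 9.15 on the vesicle arrays, 8.61, 8.81 and 9.18 on the cell arrays, 8.75 and 9.06 on the control arrays and 9.16 on the sham array. Col3a1, the chain of type III collagen, read 9.11, 9.36 and 9.43 on the vesicle arrays, 8.80, 9.10 and 9.50 on the cell arrays, 8.92 and 9.27 on the control arrays and 9.20 on the sham array. For all 3 genes cell array 1 and control array 1 were low, cell array 3 was the highest array, and each group overlapped the others. Type V collagen starts the assembly of type I fibrils and sets their width. Its chain Col5a2 read 7.18, 7.40 and 7.49 on the vesicle arrays, 6.92, 7.22 and 7.38 on the cell arrays, 6.96 and 7.35 on the control arrays and 7.39 on the sham array. Its chain Col5a1 read 7.33, 7.37 and 7.41 on the vesicle arrays, 7.20, 7.30 and 7.40 on the cell arrays, 7.14 and 7.40 on the control arrays and 7.33 on the sham array. Cell array 1 and control array 1 were again the lowest arrays for both chains. Col5a3, the remaining type V chain, spanned 0.23 over the 9 arrays and Col11a1, a minor fibrillar chain best known from cartilage, spanned 0.25, both below the negative controls throughout.

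**Figure D1:**
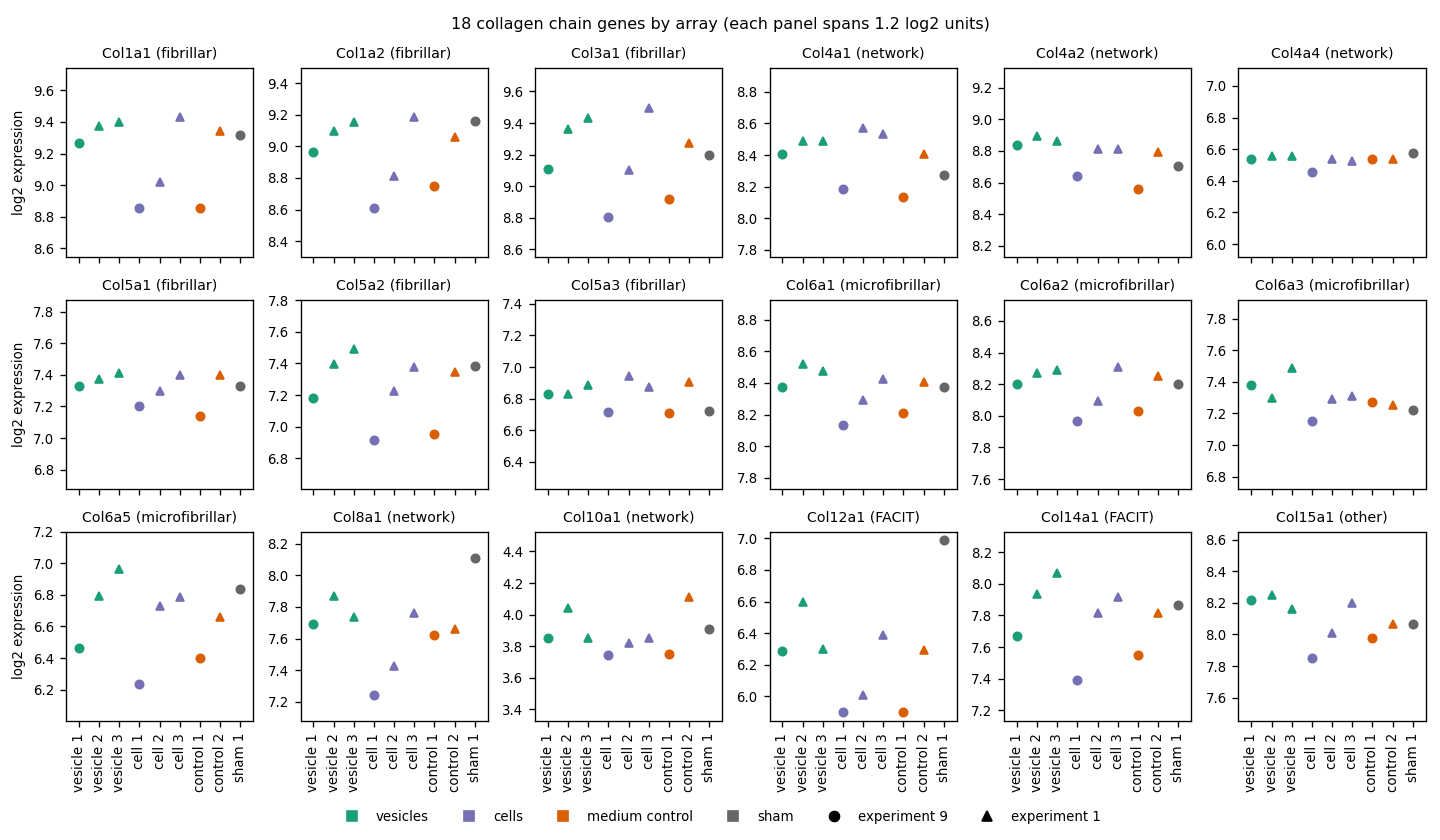
Deposited log2 expression of the 18 varying collagen genes on each array (vertical axis, each panel spanning 1.2 log2 units; horizontal axis, array), coloured by group and with circles for experiment 9 and triangles for experiment 1. Cell array 1 is the lowest array in 13 panels and control array 1 in the other 5, and the sham array is highest for Col12a1, Col8a1 and Col4a4.

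The FACIT chains with a clear spread were Col12a1 and Col14a1, which encode type XII and type XIV collagen and bind to the surface of type I fibrils. Col14a1 read 7.67, 7.93 and 8.07 on the vesicle arrays, 7.39, 7.81 and 7.91 on the cell arrays, 7.55 and 7.81 on the control arrays and 7.86 on the sham array. Col12a1 read 6.29, 6.60 and 6.30 on the vesicle arrays, 5.90, 6.01 and 6.39 on the cell arrays, 5.90 and 6.29 on the control arrays and 6.99 on the sham array. Col12a1 had the widest range of the 42 genes, 1.09, although it stayed below the negative controls on every array. Its highest value was on the sham array, while cell array 1 and control array 1 shared the lowest reading to 2 decimals. The other 7 FACIT chains were tied genes below the negative controls with ranges of 0.08 to 0.19. They were the type IX cartilage chains Col9a1, Col9a2 and Col9a3, together with Col16a1, Col19a1, Col20a1 and Col22a1.

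Among the network chains, the basement membrane pair was above the negative controls on every array. Col4a1 and Col4a2 encode the type IV chains found in nearly all basement membranes and are transcribed from neighbouring genes on opposite strands. Col4a2 read 8.84, 8.90 and 8.86 on the vesicle arrays, 8.64, 8.81 and 8.81 on the cell arrays, 8.56 and 8.79 on the control arrays and 8.71 on the sham array. Its 3 vesicle arrays all lay above the highest of the control arrays and of the cell arrays. Col4a1 read 8.41, 8.49 and 8.49 on the vesicle arrays, 8.19, 8.57 and 8.53 on the cell arrays, 8.14 and 8.41 on the control arrays and 8.28 on the sham array, and the cell arrays reached above the vesicle arrays. Col8a1 encodes a short chain that forms hexagonal lattices and is known from vessel walls. It read 7.69, 7.87 and 7.73 on the vesicle arrays, 7.24, 7.43 and 7.76 on the cell arrays, 7.62 and 7.66 on the control arrays and 8.11 on the sham array. The sham array was highest, and cell arrays 1 and 2 were lowest. Col4a3, Col4a4, Col4a5 and Col4a6 encode chains of specialised basement membranes such as that of the kidney glomerulus. They stayed below the negative controls on every array, as did Col8a2, the partner of Col8a1, and Col10a1, the chain of growth plate cartilage.

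Type VI collagen links basement membranes to the interstitial matrix, and its core chains are Col6a1, Col6a2 and Col6a3. Col6a1 read 8.37, 8.52 and 8.48 on the vesicle arrays, 8.13, 8.29 and 8.43 on the cell arrays, 8.21 and 8.41 on the control arrays and 8.37 on the sham array. Col6a2 read 8.20, 8.27 and 8.29 on the vesicle arrays, 7.96, 8.09 and 8.31 on the cell arrays, 8.03 and 8.25 on the control arrays and 8.20 on the sham array. Both chains were lowest on cell array 1 and next lowest on control array 1. Col6a3 did not share that order, reading 7.38, 7.29 and 7.49 on the vesicle arrays, 7.15, 7.29 and 7.31 on the cell arrays, 7.28 and 7.25 on the control arrays and 7.22 on the sham array. The alternative chain Col6a5 read 6.47, 6.79 and 6.96 on the vesicle arrays, 6.24, 6.73 and 6.78 on the cell arrays, 6.40 and 6.66 on the control arrays and 6.84 on the sham array. It had the widest range of type VI, 0.72, whereas its neighbour in the genome, Col6a6, spanned 0.16. Col6a6 was a tied gene, and both chains were below the negative controls on every array. Col15a1, a multiplexin near the basement membranes of muscle and capillaries, read 8.22, 8.25 and 8.16 on the vesicle arrays, 7.85, 8.01 and 8.20 on the cell arrays, 7.98 and 8.06 on the control arrays and 8.07 on the sham array. All 3 vesicle arrays of Col15a1 lay above both control arrays.

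**Figure D2:**
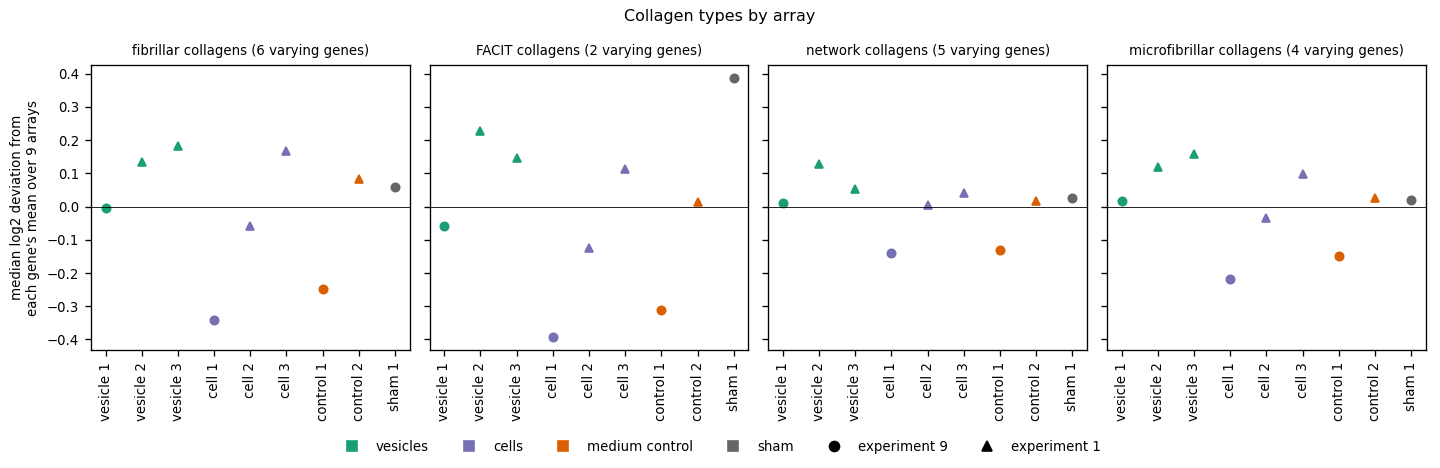
Median over the varying genes of 4 collagen types of the log2 deviation from each gene's own mean over the 9 arrays (vertical axis, log2), by array (horizontal axis), with colours for groups and circles and triangles for experiments 9 and 1. In all 4 types the circles of cell array 1 (-0.39 to -0.14) and control array 1 (-0.31 to -0.13) lie lowest.

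The collagen types shared their lowest arrays, cell array 1 and control array 1, but not their highest. For the varying fibrillar genes the median deviation from each gene's own mean was -0.34 on cell array 1 and -0.25 on control array 1, and it was highest at 0.18 on vesicle array 3 and 0.17 on cell array 3. The varying network genes had the smallest span of the 4 types, between -0.14 on cell array 1 and 0.13 on vesicle array 2. The type VI genes spanned -0.22 on cell array 1 to 0.16 on vesicle array 3. The sham array, of the same experiment as cell array 1 and control array 1, stood at 0.06 for fibrillar, 0.39 for FACIT, 0.03 for network and 0.02 for type VI genes. The FACIT value rests on 2 genes. Col12a1, below the negative controls on every array, read 6.99 on the sham array against its mean of 6.30 over the 9 arrays. Col14a1 read 7.86 there against its mean of 7.78. Over all 18 varying genes cell array 1 was the lowest array for 13 genes (72.2%) and control array 1 for 5 (27.8%), against 12.8% and 8.6% of all 11724 varying genes on the array.

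Hearts given vesicles were compared first with hearts given medium. No collagen gene passed the test in limma (moderated test, Benjamini-Hochberg adjusted p under 0.05 over 30142 genes), and neither did any other gene, so the share called was 0%. The fitted log2 difference of the vesicle from the control arrays was above 0 for 22 collagen genes and below 0 for 20, against 39.5% and 60.4% of all genes, and its median was 0.0032 for collagens and -0.012 for all genes. Among the 18 varying genes 17 differences were above 0 (43.8% of all varying genes were) with a median of 0.13, or 1.10-fold, and Col10a1 at -0.041 was the exception. The median without vesicle array 3 was 0.0043 over the 42 genes. Class medians were 0.032 for fibrillar, -0.043 for FACIT, 0.015 for network, 0.12 for type VI and -0.043 for the other chains. Tied genes made up 7 of the 9 FACIT and 7 of the 8 other chains. Over the varying genes alone the medians were 0.13 for fibrillar, 0.20 for FACIT (2 genes), 0.092 for network and 0.12 for type VI. Col15a1, the only varying gene of the other chains, was at 0.17.

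At an unadjusted p under 0.05, 1 collagen gene was higher after vesicles (1.91% of all genes were) and 1 was lower (4.53% of all genes). The higher one was Col4a2 at 0.17 ± 0.046 (SE, with 3 vesicle and 2 control arrays, 95% interval 0.05 to 0.29), 1.12-fold, with a limma adjusted p of 0.676. Its difference was 0.19 without vesicle array 3 and 0.11 without control array 1. The lower one was Col23a1, a transmembrane collagen, at -0.087 ± 0.030, a tied gene that read 6.17, 6.25 and 6.28 on the vesicle arrays, 6.27 on each cell array, 6.27 and 6.36 on the control arrays and 6.27 on the sham array. Vesicle array 1 alone was low and control array 2 alone was high for that gene. The widest intervals were those of Col12a1 and Col1a1. Col12a1 was 0.25 higher after vesicles with an interval of -0.12 to 0.63, and Col1a1 was 0.20 higher with an interval of -0.17 to 0.56. Without vesicle array 3 the differences of Col12a1 and Col1a1 were 0.35 and 0.22. The Col1a1 difference was 0.086 without control array 1.

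Col4a2, Col6a3, Col8a1 and Col15a1 were the collagen genes whose 3 vesicle arrays all lay above both control arrays, 4 of 42 genes, against 3.72% of all genes. No collagen gene had all vesicle arrays below the control arrays, against 7.17% of all genes. Without vesicle array 3, the differences of Col6a3, Col8a1 and Col15a1 were 0.075, 0.14 and 0.21, where all arrays gave 0.12, 0.092 and 0.17. Without control array 1 the difference of Col8a1 was 0.18. Read by experiment, the median over the varying genes was 0.18 for vesicle array 1 over control array 1, 0.066 for vesicle array 2 over control array 2 and 0.072 for vesicle array 3 over control array 2. The titles give arrays 3 a VTS number that no control array has, so they are set against control array 2 of another VTS number.

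**Figure D3:**
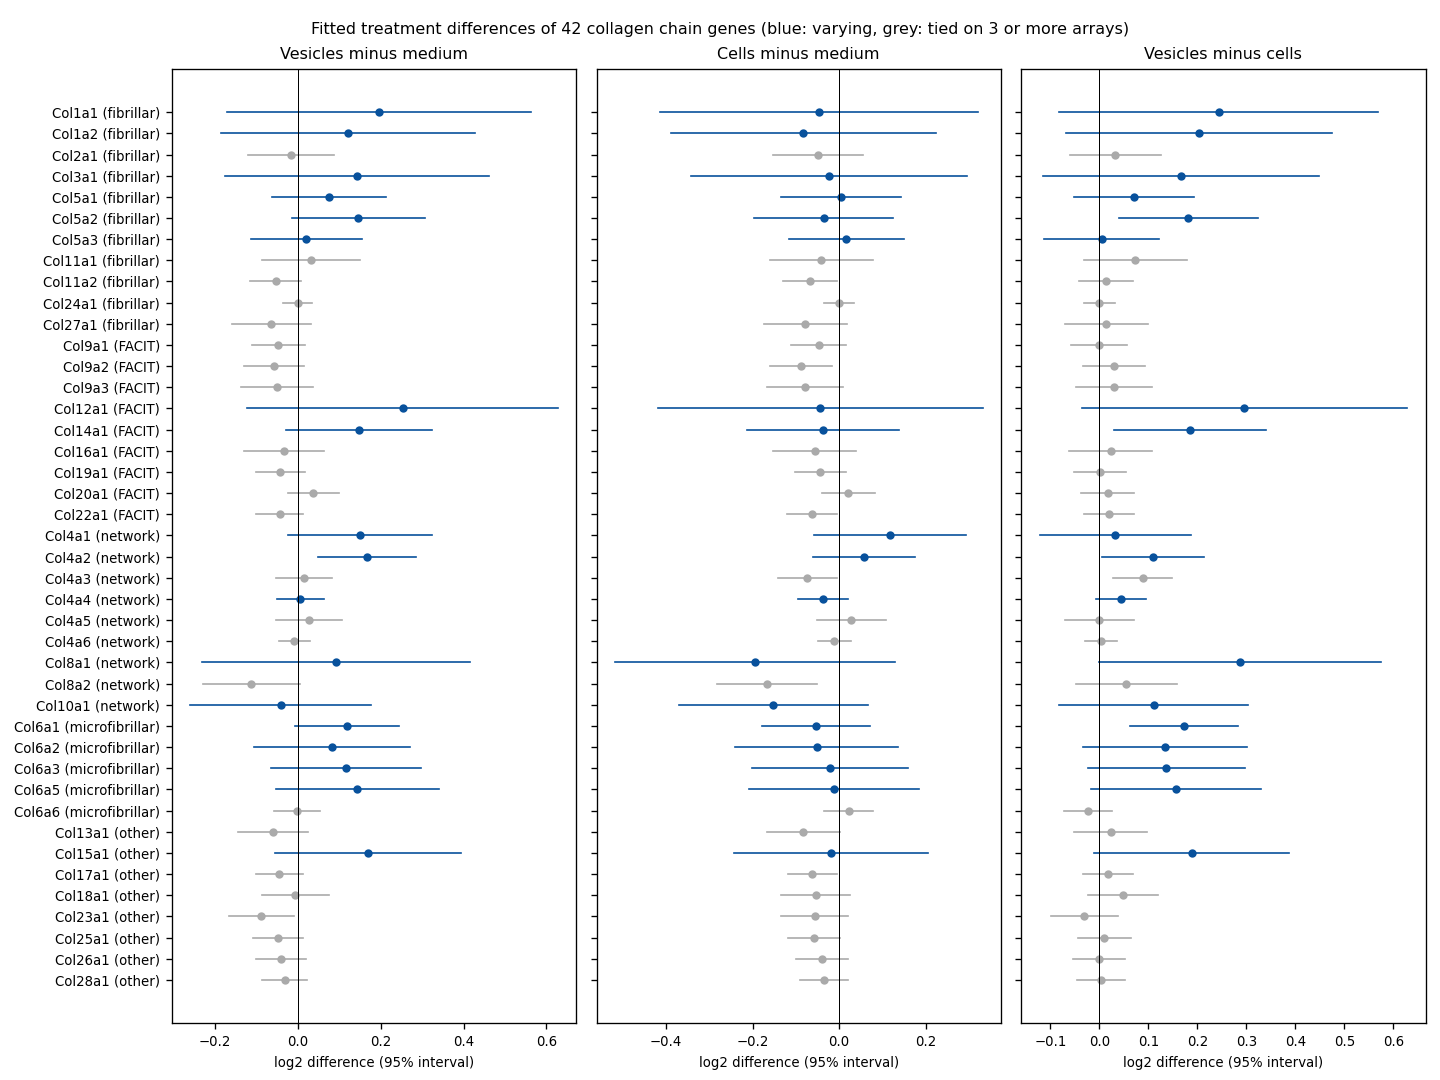
Fitted log2 differences (horizontal axis) of the 42 collagen genes (rows) for vesicles minus medium, cells minus medium and vesicles minus cells, with 95% intervals from limma, from 3 vesicle, 3 cell and 2 control arrays. Blue marks varying genes and grey tied genes, and no gene passed the adjusted threshold in any panel.

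Hearts given cells were compared with hearts given medium in the same fit. No collagen gene and no other gene passed the adjusted threshold, so the share called was 0%. The fitted difference was below 0 for 34 of the 42 collagen genes, against 55.7% of all genes, and above 0 for 8, against 44.3%, with a median of -0.046 for collagens and -0.0064 for all genes. Of the 18 varying genes 14 lay below 0 (49.1% of all varying genes) with a median of -0.036. Read by experiment, the median over the varying genes was -0.071 for cell array 1 over control array 1, -0.11 for cell array 2 over control array 2 and 0.074 for cell array 3 over control array 2, where 15 of the 18 were higher. Class medians were -0.042 for fibrillar, -0.047 for FACIT, -0.038 for network, -0.020 for type VI and -0.055 for the other chains. Over the varying genes alone they were -0.029 for fibrillar, -0.040 for FACIT (2 genes), -0.038 for network and -0.036 for type VI. Col15a1, the only varying gene of the other chains, was at -0.019.

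At an unadjusted p under 0.05, 6 collagen genes were lower after cells and 0 higher, against 5.05% and 1.68% of all genes. They were Col8a2, Col4a3, the cartilage chains Col9a2 and Col11a2, Col22a1 of muscle-tendon junctions and Col17a1 of the skin's hemidesmosomes. All 6 were tied genes below the negative controls, with limma adjusted p of 0.682. Col8a2 had the largest difference of them, -0.17 ± 0.046 (SE, 3 cell and 2 control arrays). It read 6.67, 6.67 and 6.71 on the vesicle arrays, 6.54, 6.67 and 6.67 on the cell arrays, 6.67 and 6.88 on the control arrays and 6.67 on the sham array. Its value was thus the same to 2 decimals on 6 arrays, high on control array 2 and low on cell array 1. The other 5 had differences between -0.087 and -0.062. Col9a2 read 6.65 on each vesicle array, 6.56, 6.65 and 6.65 on the cell arrays, 6.65 and 6.75 on the control arrays and 6.65 on the sham array. Col11a2 read 6.52 on each vesicle array, 6.48, 6.52 and 6.52 on the cell arrays, 6.52 and 6.61 on the control arrays and 6.52 on the sham array. Both chains were thus high on control array 2 alone and low on cell array 1 alone. Col22a1 read 6.00 on each vesicle array, 5.94, 6.00 and 6.00 on the cell arrays, 5.99 and 6.07 on the control arrays and 6.01 on the sham array. Col17a1 read 5.85 on each vesicle array, 5.80, 5.85 and 5.85 on the cell arrays, 5.85 and 5.93 on the control arrays and 5.85 on the sham array. Control array 2 was again highest and cell array 1 lowest for this pair. Col4a3 was the only collagen gene with all cell arrays below both control arrays (5.57% of all genes), and none had them all above (3.2% of all genes). It read 6.28, 6.28 and 6.34 on the vesicle arrays, 6.17, 6.23 and 6.24 on the cell arrays, 6.28 and 6.28 on the control arrays and 6.35 on the sham array. Of the chains above the negative controls throughout, Col4a1 was 0.12 higher after cells with an interval of -0.06 to 0.29, and Col4a2 was 0.058 higher with an interval of -0.06 to 0.18. Col8a1 stood at -0.19 with an interval of -0.52 to 0.13, and Col1a1 stood at -0.048 with an interval of -0.42 to 0.32.

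The tied collagen genes shared a pattern of single arrays. Control array 2 was alone at the highest value for 17 of the 24 tied genes (70.8%), against 30.2% of all tied genes, and cell array 1 was alone at the lowest value for 15 (62.5%), against 16.7%. Col24a1, a fibrillar chain, read 5.74 on all 9 arrays. The tied genes spanned at most 0.34 over the arrays, with a median range of 0.15, while the varying collagen genes spanned 0.12 to 1.09 with a median of 0.41. With control array 1 left out, Col9a1 passed the adjusted threshold both after vesicles and after cells, at -0.086 each time. That fit rests on control array 2 alone, assumed to vary like the other groups, and it also called 823 genes after vesicles and 901 after cells.

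**Figure D4:**
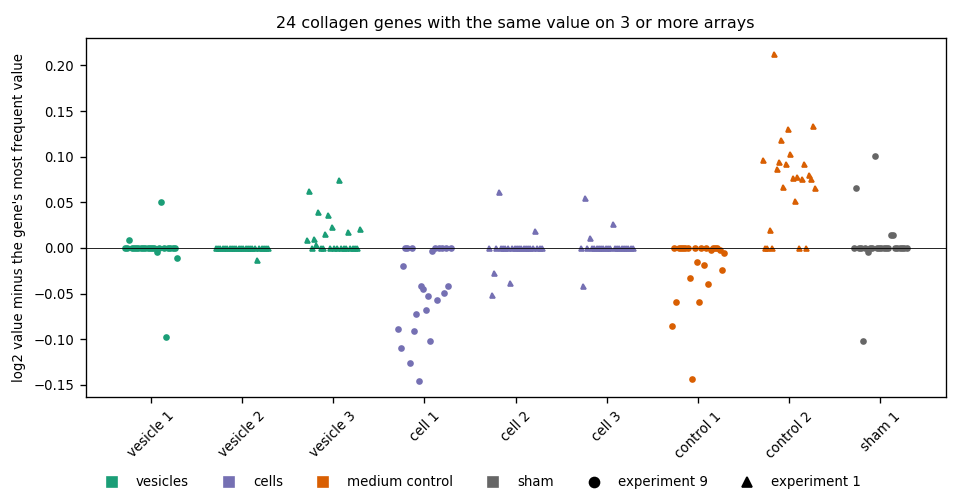
Log2 value of each of the 24 tied collagen genes minus its most frequent value (vertical axis) on each array (horizontal axis), with colours for groups and circles and triangles for experiments 9 and 1. Control array 2 lies above 0 and cell array 1 below 0 for most genes, while most points of the other arrays lie at 0.

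Vesicles and cells were also set against each other. No gene passed the adjusted threshold, so the share called was 0%. The fitted difference of vesicle from cell arrays was above 0 for 36 of 42 collagen genes (46.3% of all genes) and below 0 for 4 (52.1%), with a median of 0.033, and for all 18 varying genes (45% of all varying genes) with a median of 0.16, or 1.12-fold. Without vesicle array 3 the median over the 42 genes was 0.043, and without vesicle array 1 it was 0.0011. At an unadjusted p under 0.05, 5 collagen genes were higher after vesicles (1.75% of all genes) and 0 lower (2.59%). They were Col6a1 at 0.17 ± 0.044, Col5a2 at 0.18 ± 0.056, Col14a1 at 0.19 ± 0.061, Col4a2 at 0.11 ± 0.041 and Col4a3 at 0.088 ± 0.024 (SE, 3 vesicle and 3 cell arrays), each with a limma adjusted p of 0.920. Their levels on each array are given above. Col4a2, Col4a3 and Col4a4 had all vesicle arrays above all cell arrays, 3 genes of 42 against 1.85% of all genes, and no collagen gene had them all below (2.56%). Within experiment 9 the median of the varying genes was 0.24 higher on vesicle array 1 than on cell array 1. Within experiment 1 the mean of vesicle arrays 2 and 3 was higher than that of cell arrays 2 and 3 by a median of 0.11. These 3 treatment comparisons share arrays, so they are not independent of each other.

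Fitted levels of the scar collagens and most type VI chains were lower in the injected hearts of experiment 9 than in experiment 1, without passing the test. The fit left out the sham array of experiment 9, where the varying fibrillar genes had a median deviation of 0.06. That deviation was -0.34 on cell array 1, -0.25 on control array 1 and -0.0031 on vesicle array 1. No collagen gene and no other gene passed the adjusted threshold for experiment 9 against experiment 1, so the share called was 0%. The difference was below 0 for 40 of 42 collagen genes, against 58.4% of all genes, with a median of -0.070, and for all 18 varying genes, against 51.5%, with a median of -0.18. At an unadjusted p under 0.05, 18 collagen genes were lower in experiment 9 (6.56% of all genes) and 0 higher (6.2%), and 12 of the 18 were varying genes (8.59% of all varying genes were lower). Col5a2 had the lowest limma adjusted p, 0.219, at -0.34 ± 0.051 (SE, 3 arrays of experiment 9 and 5 of experiment 1). Col6a5, below the negative controls on every array, was at -0.41 ± 0.062 with a limma adjusted p of 0.222, Col14a1 at -0.36 ± 0.055 with 0.225, and Col3a1 at -0.38 ± 0.10 with 0.316. Col5a2, Col6a5, Col14a1 and Col18a1, the multiplexin that yields endostatin, had all 3 injected arrays of experiment 9 below all 5 of experiment 1, against 2.74% of all genes. No collagen gene had them all above (4.18%). Col18a1 was a tied gene below the negative controls on every array. It read 6.678 on vesicle array 1, and 6.682 on vesicle array 2, cell array 2 and the sham array. Fitted levels of all 7 cardiomyocyte markers were higher in experiment 9 (41.6% of all genes), 5 of them at an unadjusted p under 0.05. Those of all 8 macrophage markers were lower, 7 of them at that p, with a median of -0.28. The sham array of experiment 9, outside this fit, had a cardiomyocyte list mean of 11.29. The injected arrays had 11.36 to 11.38 in experiment 9 and 11.27 to 11.32 in experiment 1. For the macrophage list the sham array had 7.05, against 6.80 to 6.95 and 7.02 to 7.20. The part of these markers in the collagen values was not tested.

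Class medians between the experiments were -0.13 for fibrillar, -0.059 for FACIT, -0.11 for network, -0.18 for type VI and -0.052 for the other chains. Over the varying genes alone they were -0.29 for fibrillar, -0.32 for FACIT (2 genes), -0.17 for network and -0.18 for type VI. Col15a1, the only varying gene of the other chains, stood at -0.11. Neighbouring genes gave like values in some pairs and unlike values in others. Col6a1 and Col6a2 differed between the experiments by -0.18 each, and Col3a1 and Col5a2 by -0.38 and -0.34. Col4a1 and Col4a2 stood at -0.24 and -0.14, while Col6a5 stood at -0.41 and Col6a6, a tied gene, at -0.014. Col6a5 and Col6a6 were both below the negative controls on every array. Whether a treatment difference itself changed with the experiment was tested by an interaction term, on 2 residual degrees of freedom. No collagen gene passed, nor any other gene (0%). The lowest limma adjusted p was 0.0735 for vesicles and 0.0806 for cells. At an unadjusted p under 0.05 there were 18 collagen genes for vesicles and 12 for cells, against 18.1% and 18.8% of all genes, and 16 and 11 of them were tied genes. Of all 18418 tied genes 4206 and 4262 reached that p. Of the 18 varying collagen genes 2 and 1 did, beside 1251 and 1404 of all 11724 varying genes.

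Scar fibroblast markers were low on the same arrays as the scar collagens. The list mean of 6 activated fibroblast markers was 7.81, 8.13 and 8.08 on the vesicle arrays, 7.54, 7.82 and 8.01 on the cell arrays, 7.55 and 7.90 on the control arrays and 8.03 on the sham array. Within that list Cthrc1 and Fap were below the negative controls on all arrays, and Postn, the scar matrix protein periostin, read 9.54, 9.78 and 9.72 on the vesicle arrays, 8.97, 9.20 and 9.47 on the cell arrays, 8.92 and 9.52 on the control arrays and 9.92 on the sham array. Cell array 1 and control array 1 were again lowest for Postn. Markers of fibroblasts in general spanned less, with a list mean over 7 genes of 8.98 on cell array 1 to 9.26 on vesicle array 2. Control array 1 was not the lower control for that list, at 9.05 against 9.01 on control array 2. The macrophage list mean over 8 genes lay between 6.80 on cell array 1 and 7.20 on vesicle array 3 and control array 2. Of the macrophage markers Cd68, Adgre1, Cd163 and Cd14 were below the negative controls on all arrays. The part of these cell types in the collagen values was not tested. Nppa, the atrial natriuretic peptide gene of strained heart muscle, was also lowest on cell array 1 and control array 1, at 12.93 and 12.97, and highest on the sham array, at 13.37.

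The sham heart was set beside the injected hearts of its own experiment, with 1 array each and so with no test. Control array 1 was lower than the sham array for 30 of 42 collagen genes and higher for 3, with a median difference of -0.045 (0 over all genes). Of all 30142 genes 11690 were lower and 12343 higher. Its difference was past -0.25 for 8 collagen genes, against 2.54% of all genes, and past 0.25 for 0, against 2.03%. The 8 were Col12a1 at -1.09, Col8a1 at -0.49, Col1a1 at -0.46, Col6a5 at -0.44, Col5a2 at -0.43, Col1a2 at -0.41, Col14a1 at -0.31 and Col3a1 at -0.28. They are chains of type I, III and V fibres, both varying FACIT chains, Col8a1 and Col6a5. Cell array 1 was past -0.25 below the sham array for 8 genes (2.51% of all genes) and above it for 0 (2.93%), with Col12a1 at -1.09, Col8a1 at -0.87 and Col6a5 at -0.60 as the largest. Vesicle array 1 was past -0.25 for 3 genes (3.37% of all genes), Col12a1 at -0.70, Col8a1 at -0.42 and Col6a5 at -0.37, and past 0.25 for 0 (1.44%). The scar chains Col1a1 and Col3a1 differed from the sham array by -0.049 and -0.086 on vesicle array 1. Col4a1, Col4a2 and Col15a1 were 0.13, 0.13 and 0.15 higher on vesicle array 1 than on the sham array, whereas control array 1 stood at -0.14, -0.15 and -0.091.

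**Figure D5:**
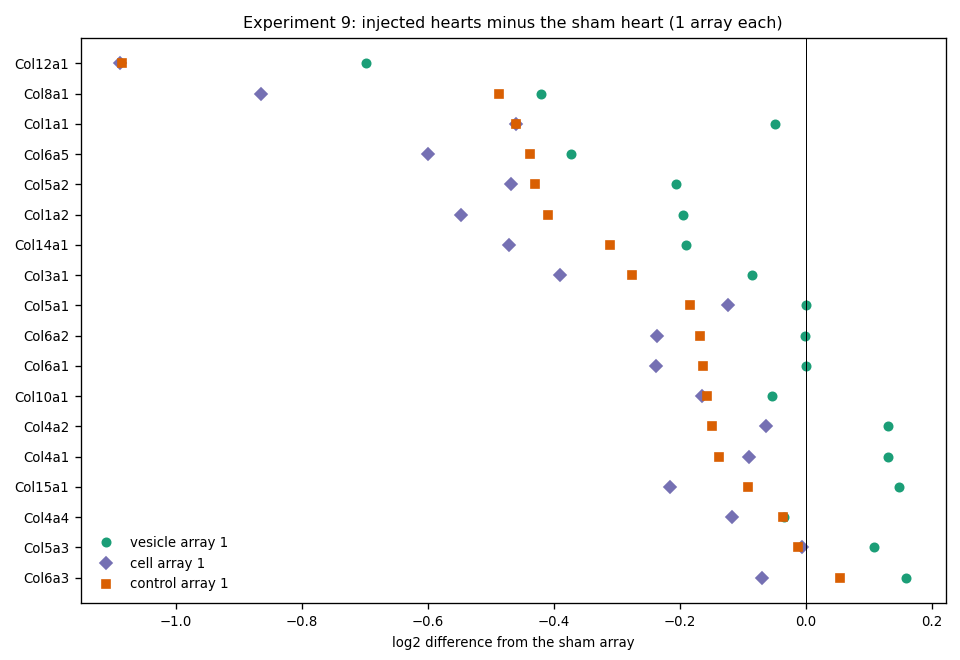
Log2 difference from the sham array (horizontal axis) of vesicle array 1, cell array 1 and control array 1, all of experiment 9, for the 18 varying collagen genes (rows). Cell array 1 lies below the sham array for all 18 genes and control array 1 for 17, against 5550 and 6042 of all 11724 varying genes. Col12a1 has the largest difference, -1.09 on both.

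Genes that process collagen gave no call either. Of 18 measured genes that fold and hydroxylate collagen chains, 0 passed limma's adjusted threshold in a treatment comparison, and at an unadjusted p under 0.05 there were 1 higher and 1 lower after vesicles and 2 higher and 1 lower after cells. Of all genes 1.91% were higher and 4.53% lower at that p after vesicles, and 1.68% and 5.05% after cells. Tied genes made up 10 of the 18. P3h4, a partner of the lysyl hydroxylation machinery, was at -0.094 ± 0.017 after vesicles and -0.094 ± 0.017 after cells, and Colgalt2, a collagen galactosyltransferase, at 0.088 ± 0.016 and 0.088 ± 0.016 (SE, limma adjusted p 0.676 and 0.682 for both genes). Both comparisons use the same control arrays, so equal differences are not separate responses to vesicles and to cells. Tmem38b, an ion channel of the endoplasmic reticulum, was at 0.057 and 0.093, and P4ha3, a prolyl hydroxylase subunit, at -0.057 and -0.17. Of 13 genes for procollagen export and trimming 0 passed, and at an unadjusted p under 0.05 there was 1 lower after vesicles, and 1 higher and 1 lower after cells, beside the same shares of all genes. Tied genes made up 10 of the 13. Mia2, a receptor at exit sites of the endoplasmic reticulum, was at -0.11 after vesicles and -0.11 after cells, Adamts3, which trims the amino end, at 0.0080 and 0.044, Sec23a, of the vesicle coat, at 0.070 and 0.075, and Bmp1, which trims the carboxyl end, at 0.078 and 0.0089.

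Of 5 measured cross-linking genes 0 passed a treatment test in limma, and 0 had an unadjusted p under 0.05. All 5 had lower fitted levels in experiment 9 than in experiment 1, against 58.4% of all genes. The negative controls were exceeded on all arrays by 2 of the 5. Lox, lysyl oxidase, was below the negative controls on every array. It read 6.57, 6.80 and 6.83 on the vesicle arrays, 6.24, 6.76 and 7.03 on the cell arrays, 6.08 and 6.94 on the control arrays and 6.76 on the sham array. Its difference between experiment 9 and experiment 1 was -0.56 ± 0.13 (SE, limma adjusted p 0.290), and those of the related Loxl1, Loxl3 and Loxl4 were -0.46, -0.38 and -0.077. The median over the 5 genes was -0.38 between the experiments, beside 0.11 for vesicles over medium and 0.068 for cells over medium. Of 9 measured collagen receptors 0 passed, and at an unadjusted p under 0.05 there were 2 higher after vesicles (1.91% of all genes) and 0 after cells (1.68%). Itgb1, the shared beta subunit of the collagen-binding integrins, was at 0.095 ± 0.031 after vesicles and 0.047 ± 0.031 after cells, and Ddr2, the fibrillar collagen receptor of fibroblasts, at 0.22 ± 0.082 and 0.085 ± 0.082 (SE, limma adjusted p 0.676 for both after vesicles). Ddr1, its epithelial relative, was at -0.019 and -0.043, and Lair1, an inhibitory collagen receptor of immune cells, at -0.24 and -0.097.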

How the data were processed

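RNA from whole frozen hearts was labelled by the Affymetrix whole-transcript assay, per the labels' protocols. The deposited log2 values are the authors' normalized expression per probe set. How they were normalized is not stated in the sources used, and the submitters' processing notes give only the name Partek. Of 80202 probe sets 30604 had 1 gene symbol, 827 symbols were updated through Entrez numbers, and for each gene the brightest probe set on average over 9 arrays was kept, which left 30142 genes. Differences were fitted with limma 3.58.1 in R 4.3.3 (lmFit, eBayes) on 8 arrays, with the experiment as a fixed block, 4 residual and 1.18 prior degrees of freedom, two-sided tests and Benjamini-Hochberg adjustment at 0.05 over all genes. The sham array was compared by value only. The limma fit was tested on simulated data with normal spread around each gene's mean, which did not imitate tied values. Arrays have no read depth, so their number limits precision. Arrays of a group were numbered in accession order. By the titles, arrays numbered 1 share experiment 9 and VTS 3, those numbered 2 experiment 1 and VTS 1, and those numbered 3 experiment 1 and VTS 2, numbers whose meaning is not stated. Every collagen gene could be named, full values per array were given to the 12 with the highest mean and those at an unadjusted p under 0.05 for a treatment (also to Col12a1 and Col6a5, chosen after their values were seen), and up to 4 genes of each other list were named by lowest unadjusted p. The members and lists were chosen with earlier results of these data known. Alternatives changed the block, the scaling, the filters, the probe set rule, the prior and the arrays used.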

Additional observations from a re-analysis of the deposited data

Results flagged for a closer look

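In 3 class medians the array of experiment 9 lay on one side of its control array and both arrays of experiment 1 on the opposite side of theirs. For vesicles against medium, the median of the 9 FACIT chains was 0.0326 in experiment 9 and -0.0779 for each vesicle array of experiment 1. The median of the 8 other chains was 0.0011 in experiment 9, and -0.0763 and -0.0752 in experiment 1. For cells against medium, the median of the 5 type VI chains was -0.0740 in experiment 9, and 0.0435 and 0.0525 in experiment 1. Each experiment has 1 control array, and 7 of the FACIT and 7 of the other chains are tied genes, for which control array 2 is often the single high array. The difference between the experiments was not tested for these medians. Gene by gene it was, and 0 collagen genes passed. No group has 4 arrays, so single arrays were not screened for outlying values.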

How the results depend on the processing

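No collagen gene was called by limma in any treatment or experiment comparison under any alternative run, with 1 exception, Col9a1 without control array 1. Leaving out each array in turn gave 0 to 823 genes and 0 to 1 collagen genes for vesicles against medium, 0 to 901 and 0 to 1 for cells against medium, and 0 for vesicles against cells and for the experiments. Of these fits only the one without control array 1 gave calls, and it rests on 1 control array. Cells against medium called 1 gene with the sham array counted as a control, and the experiments 2 genes with tied genes left out. The median over collagen genes with each array left out lay between -0.0091 and 0.0205 for vesicles against medium, -0.0757 (without control array 1) to -0.0129 (without control array 2) for cells against medium, 0.0011 (without vesicle array 1) to 0.0488 for vesicles against cells and -0.1007 (without vesicle array 1) to -0.0487 for the experiments. With genes below the negative controls left out it was 0.1436, 0.1723 and -0.1815 for vesicles against medium, vesicles against cells and the experiments, and with tied genes left out 0.1321, 0.1615 and -0.18. With arrays centred on their median the experiment median was -0.0369. Against the sham array, leaving out dim and tied genes gave -0.1845 and -0.1764 for medium and -0.2378 and -0.2368 for cells, and leaving out tied genes gave -0.042 for vesicles. These filters leave fewer genes; for the centring the cause was not tested. Over all alternatives, 2608 values of single collagen genes stayed within their standard error, 244 moved further and 2 newly passed (Col9a1). No block and a random block called 0 genes for the treatments, as did the VTS number as a block, which arrays of different groups share. Signal over background limits the 29 collagen genes below the negative controls throughout. By replicate number, no paired analysis was possible because the titles give number 1 to every array.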
